A study of Homo sapiens with 24 samples.

Results

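The zinc finger genes that lie in the proximal part of 19q13, the long arm of human chromosome 19, were followed across 24 arrays of HEK293 cells, a human embryonic kidney line. They were taken by symbol and position from a list of 53 genes of the ZNF clusters between 19q13.1 and 19q13.3. The list was chosen with earlier results of these data known, so that shares of its genes are descriptions only. Of the 53 genes, 50 had a probe set of their own among the 19775 genes so measured. ZNF181 and ZNF260 had no named probe set, and ZNF285 had only one shared with ZNF285CP. The 50 genes were read by 106 probe sets, and the probe set with the highest mean over the 24 arrays stands for each gene unless another is named.

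The cells were of 8 conditions with 3 biological replicates each. They were treated with transfection complexes for 24 h that held no DNA (untransfected), the empty plasmid pCDNA3 (vector), pCDNA3 with Flag-tagged wild type SIRT6 (SIRT6), or the same plasmid with the H133W mutant, which the study treats as deacetylase-dead (H133W). Each kind of cell was then taken without TNFα, in medium with PBS and BSA, or with 10 ng/ml TNFα. The series design gives 1 h of TNFα and the methods of the study give 4 h. Transfection was transient and reached only part of the cells, so that each array averages transfected and untransfected cells, and fewer cells with a change cannot be told apart from a smaller change per cell. Values are log2 signals after RMA, and a change is a difference of 2 condition means on that scale with the SE of the linear model. A gene was called upregulated where it rose more than 1.5-fold with an adjusted p under 0.05, downregulated where it fell as much, and members that passed the adjusted p alone are given as such.

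Most of these genes encode C2H2 zinc finger proteins with a KRAB domain, a large family that spread along chromosome 19 by tandem duplication. The fingers bind DNA, often within transposable elements, and the KRAB domain recruits the corepressor TRIM28 (KAP1) together with SETDB1 and HP1, which place and read H3K9 methylation. Neighbouring genes of the family are often close copies of each other. SIRT6 is a nuclear sirtuin that removes acetyl groups from histone H3, among them H3K9.

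In RefSeq order the 50 genes fall into 5 blocks divided by gaps of more than 1 Mb. Block 1 runs from ZNF302 to ZNF792 with 4 genes, block 2 from ZNF565 to ZNF573 with 22, block 3 from ZNF546 to ZNF780A with 3, block 4 from ZNF428 to ZNF180 with 20, and ZNF473 stands alone as block 5. RefSeq promoter windows, from 250 bases before to 50 bases after an annotated start in GRCh38.p14, were at hand for 42 of the 50 genes, 58 windows in all. ZNF473, ZNF155, ZNF223, ZNF221, ZNF233, ZNF30, ZNF571 and ZNF781 had none. The windows of ZNF565 and ZNF146, ZNF382 and ZNF529, ZNF567 and ZNF461, and ZNF569 and ZNF570 overlapped on opposite strands, by 60 to 196 bases.

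A sequence known as a binding element of ZNF143 and THAP11, searched on both strands as ACTACA followed after 2 bases by TCCC, was present in 22 of the 58 windows (37.9%), which belong to 21 genes. Among all 35116 RefSeq windows of this length 1.75% held it, and among the 586 windows of other genes named ZNF 50 did (8.53%). Its 24 matches began between 241 and 17 bases before the start, at a median of 82. The GC box GGGCGG was in 25 member windows (43.1%, against 45% of all windows), the ETS site CCGGAAG in 16 (27.6%, against 10.3%, and 34% of the other ZNF windows), the CCAAT box in 14 (24.1%, against 34.6%) and the TATA box TATAAA in 1 (1.72%, against 11.5%). The core TGACG of the cAMP response element was in 27 (46.6%, against 24.6% of all and 32.3% of other ZNF windows), and a site of the NRF1 type, GCGCA followed after 1 base by GCGC, was in 10 (17.2%, against 5.78% and 11.6%). The GC box, CCAAT box and TATA box were in 61.8%, 44.5% and 4.61% of the other ZNF windows. None of these overlapped a match of the element. The median window held 20 CpG dinucleotides, against 14 over all windows. Windows of 6 genes are shown because their genes carry the results below or because they show the element in single and in repeated form. Capitals mark exact matches to the element on either strand.
ZNF225, chr19:44113149-44113448, plus strand: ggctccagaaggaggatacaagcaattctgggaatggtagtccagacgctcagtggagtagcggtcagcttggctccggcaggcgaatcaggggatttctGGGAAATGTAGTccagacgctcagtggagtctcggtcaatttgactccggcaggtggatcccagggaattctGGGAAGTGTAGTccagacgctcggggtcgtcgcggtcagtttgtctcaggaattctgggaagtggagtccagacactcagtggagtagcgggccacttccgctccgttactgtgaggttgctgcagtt
ZNF230, chr19:44002707-44003006, plus strand: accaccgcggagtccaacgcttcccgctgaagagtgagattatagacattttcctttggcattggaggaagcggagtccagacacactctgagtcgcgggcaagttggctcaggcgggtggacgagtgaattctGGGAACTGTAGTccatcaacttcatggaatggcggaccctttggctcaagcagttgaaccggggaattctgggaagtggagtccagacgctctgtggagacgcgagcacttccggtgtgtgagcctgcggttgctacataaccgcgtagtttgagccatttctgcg
ZNF222, chr19:44025129-44025428, plus strand: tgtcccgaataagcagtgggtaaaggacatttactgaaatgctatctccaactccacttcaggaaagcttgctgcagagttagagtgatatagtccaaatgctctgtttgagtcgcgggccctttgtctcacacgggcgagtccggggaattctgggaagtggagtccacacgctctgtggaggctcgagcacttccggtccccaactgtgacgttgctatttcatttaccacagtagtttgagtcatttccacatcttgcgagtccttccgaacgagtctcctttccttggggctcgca
ZNF180, chr19:44500473-44500772, minus strand: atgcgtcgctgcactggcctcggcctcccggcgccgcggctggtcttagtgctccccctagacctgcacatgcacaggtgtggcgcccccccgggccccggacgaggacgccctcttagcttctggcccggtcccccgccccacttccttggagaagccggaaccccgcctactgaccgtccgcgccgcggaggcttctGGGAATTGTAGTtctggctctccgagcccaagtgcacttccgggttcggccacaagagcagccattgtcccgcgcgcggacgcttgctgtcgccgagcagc
ZNF420, chr19:37078183-37078482, plus strand: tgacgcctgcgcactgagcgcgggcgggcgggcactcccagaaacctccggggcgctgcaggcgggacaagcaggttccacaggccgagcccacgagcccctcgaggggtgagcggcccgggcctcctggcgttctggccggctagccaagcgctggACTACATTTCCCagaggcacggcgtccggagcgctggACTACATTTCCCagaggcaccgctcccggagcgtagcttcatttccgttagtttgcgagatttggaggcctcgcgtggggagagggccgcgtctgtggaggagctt
ZNF383, chr19:37217964-37218263, plus strand: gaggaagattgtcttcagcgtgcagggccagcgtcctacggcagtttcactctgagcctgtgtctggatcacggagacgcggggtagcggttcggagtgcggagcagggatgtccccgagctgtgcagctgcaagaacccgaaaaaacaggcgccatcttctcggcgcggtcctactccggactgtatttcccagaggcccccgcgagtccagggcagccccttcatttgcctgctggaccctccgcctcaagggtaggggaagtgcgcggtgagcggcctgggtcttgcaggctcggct
The windows of ZNF225 and ZNF420 hold the element 2 times, those of ZNF230 and ZNF180 hold it 1 time, and those of ZNF222 and ZNF383 have no exact match. The longest run of bases common to ZNF222 and ZNF230 is 27 bases, ccggggaattctgggaagtggagtcca, and ZNF225 and ZNF230 have a run of 26 in common that overlaps it. A match is a description of the letters in the window and says nothing of binding in these cells.

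The 24 arrays had similar medians, from 5.30 to 5.38. The keratin genes KRT8 and KRT18 and vimentin (VIM) were read at 9.32 to 11.80, and markers of blood, endothelium and fibroblasts at 1.83 to 4.75. Of the 5 markers taken for HEK293, NES and PAX2 were read at 4.40 to 5.68 only. SIRT6 itself was read by 2 probe sets, which were higher than in vector cells by 0.75 (SE 0.293) and 0.0686 (SE 0.0997) in SIRT6 cells and by 1.15 (SE 0.293) and 0.0818 (SE 0.0997) in H133W cells. With TNFα these differences were 0.59 and 0.15 in SIRT6 cells and 0.80 and 0.48 in H133W cells, of which the last passed (limma adjusted p = 0.00733), as did the 1.15 (limma adjusted p = 0.0357). It is not known here whether either set reads the transfected part. The log2 difference between the 3′ and 5′ probe sets of β-actin, which grows with RNA damage, stood at 3.03 in H133W + TNFα replicate 3 and at 2.05 in vector replicate 2, while the other 22 arrays lay between 1.33 and 1.79. Many changes named below that moved by over 1.5 times or changed their call without these 2 arrays are given also without them. Where a change is given once only, this does not show that it held without these arrays.

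The first question was whether the mutant changed these genes in unstimulated cells. Against vector cells, 12 of the 50 members were higher in H133W cells at an adjusted p under 0.05 (24%), and none was lower. Fitted on its own 6 arrays alone the comparison gave 4 members, and 0.9% of all probe sets in place of 2% (1094 to 492). Over all genes 2.57% were higher and 1.22% lower by this measure. With the fold threshold 2 were upregulated, ZNF473 and ZNF383, against 0.804% of all genes, and none was downregulated, against 0.0607%. The median change of the members was 0.19 and 38 of 50 lay above 0, whereas the median over all genes was -0.035 and 39.7% lay above 0.

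ZNF473, a component of the U7 snRNP machinery that trims the 3′ ends of histone mRNAs, was the member with the largest change. Its log2 signals were 8.35, 8.47 and 8.48 in vector cells and 9.21, 9.27 and 9.29 in H133W cells. The 2 groups stood well apart, and the rise was 0.82 (SE 0.105), a fold change of 1.77 (limma adjusted p = 8.91e-05). Its second probe set did not show this rise and is described with the probe sets. ZNF383, a KRAB zinc finger gene of block 2, was read at 6.73, 6.91 and 6.73 in vector cells and at 7.54, 7.48 and 7.28 in H133W cells. All H133W arrays lay above all vector arrays, with a rise of 0.64 (SE 0.084; limma adjusted p = 0.000118).

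ZNF222, in the tandem family of block 4, followed with 8.20, 8.23 and 8.36 in vector cells and 8.89, 8.75 and 8.80 in H133W cells, a rise of 0.55 (SE 0.08; limma adjusted p = 0.000364). Its fold change of 1.47 lay just below the threshold. The other members of block 4 at an adjusted p under 0.05 were ZNF155 (0.45, SE 0.106), ZNF227 (0.39, SE 0.0579), ZNF230 (0.39, SE 0.0727), ZNF226 (0.34, SE 0.0665) and ZNF234 (0.31, SE 0.0815). Those of block 2 were ZNF527 (0.47, SE 0.0838), ZNF570 (0.43, SE 0.0648), ZNF382 (0.35, SE 0.0568), a repressor found silenced by methylation in tumours, and ZNF420 (0.28, SE 0.063), known as Apak, which restrains p53. The H133W and vector arrays of each of these 12 genes did not overlap. This adds no support, because the genes were picked by the adjusted p of the same comparison. The same holds wherever a lack of overlap is given below. The largest falls were of ZNF781 (-0.37, SE 0.137), ZNF345 (-0.25, SE 0.147), ZNF599 (-0.20, SE 0.0861) and ZNF567 (-0.18, SE 0.0891), and none of these passed the test. ZNF568, at 0.47 with an SE of 0.389, did not pass either, and without vector replicate 2 it stood at 0.15. ZNF155 lost its adjusted p when H133W replicate 1, 2 or 3 or vector replicate 1 was left out (0.39, 0.47, 0.48 and 0.38). Without the 2 arrays of doubtful RNA quality 12 members again passed, and of all 54675 probe sets 1612 were higher and 785 lower. ZNF234 then did not pass (0.22, limma adjusted p = 0.112), and ZNF571 did (0.35, limma adjusted p = 0.0454).

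**Figure D1:**
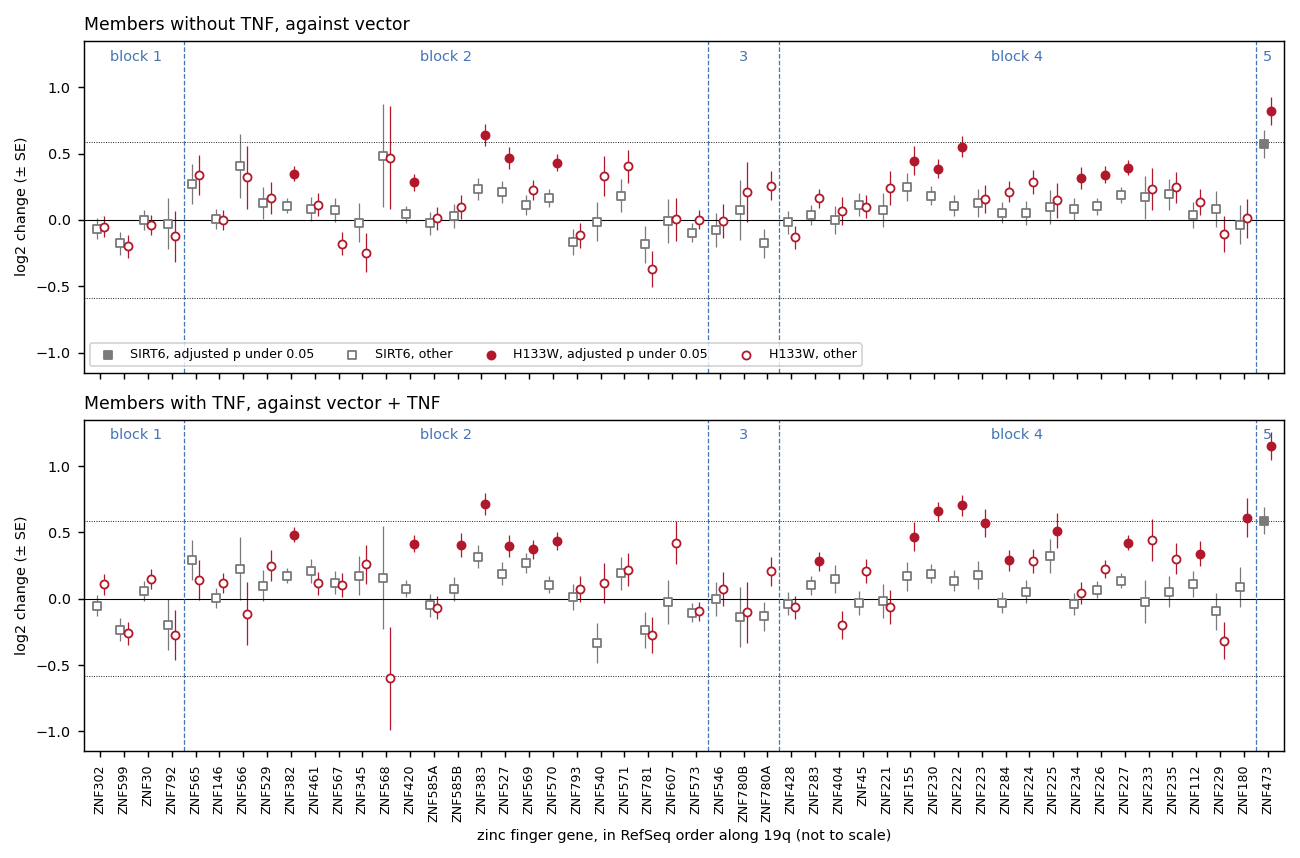
Log2 change of each of the 50 members against vector cells (y axis, bars are SE), in RefSeq order along 19q (x axis, not to scale), for SIRT6 (grey squares) and H133W (red circles), without TNFα above and with TNFα below. Filled symbols have an adjusted p under 0.05, dotted lines mark a fold change of 1.5, and dashed lines divide the 5 blocks. Filled red circles number 12 above and 18 below, all of them above 0, and ZNF473 at the right end is highest in both panels.

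The same comparison was made under TNFα, with condition means from other arrays than those of the unstimulated comparison. Both comparisons took their SE from a variance estimated over all arrays of the series, so their tests were not independent of each other. Here 18 members (36%) were higher in H133W + TNFα cells than in vector + TNFα cells at an adjusted p under 0.05, and none was lower. Fitted on its own 6 arrays alone the comparison gave 3 members, and 0.148% of all probe sets in place of 2.97%. Over all genes 4.49% were higher and 2.42% lower. With the fold threshold 5 were upregulated against 1.44% of all genes, and none was downregulated against 0.283%. The median change of the members was 0.22, with 38 of 50 above 0, and over all genes it was 0.0139, with 54% above 0.

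ZNF473 was read at 8.27, 8.34 and 8.31 in vector + TNFα cells and at 9.33, 9.35 and 9.68 in H133W + TNFα cells. This was the largest rise of the set, 1.15 (SE 0.105), a fold change of 2.22 (limma adjusted p = 1.24e-06), and without H133W + TNFα replicate 3 it was 1.03. ZNF383 went from 6.82, 6.83 and 6.92 to 7.64, 7.51 and 7.57, a rise of 0.72 (SE 0.084; limma adjusted p = 2.76e-05). The 3 arrays of each condition lay close together and the groups did not overlap.

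In block 4, ZNF222 went from 8.29, 8.28 and 8.30 to 8.99, 8.92 and 9.09, a rise of 0.70 (SE 0.08; limma adjusted p = 1.89e-05). ZNF230 went from 7.53, 7.58 and 7.73 to 8.22, 8.20 and 8.39, a rise of 0.66 (SE 0.0727; limma adjusted p = 1.37e-05). ZNF180 was the fifth upregulated member, with 8.34, 8.34 and 8.44 in vector + TNFα cells and 8.72, 8.69 and 9.54 in H133W + TNFα cells. One array thus lay far above the other two, and it is the array with the large 3′ to 5′ difference. The rise of ZNF180 was 0.61 (SE 0.148; limma adjusted p = 0.0191) with this array and 0.34 without it (adjusted p = 0.0377), below the fold threshold. It did not pass the adjusted p without vector + TNFα replicate 1 (0.59, adjusted p = 0.071) or 2 (0.60, adjusted p = 0.0702).

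The further members of block 4 that passed the adjusted p were ZNF223 (0.57, SE 0.105), ZNF225 (0.51, SE 0.129), ZNF155 (0.47, SE 0.106), ZNF227 (0.42, SE 0.0579), ZNF112 (0.34, SE 0.0955), ZNF284 (0.29, SE 0.0805) and ZNF283 (0.28, SE 0.0729). Those of block 2 were ZNF382 (0.48, SE 0.0568), ZNF570 (0.44, SE 0.0648), ZNF420 (0.42, SE 0.063), ZNF585B (0.41, SE 0.0897), ZNF527 (0.40, SE 0.0838) and ZNF569 (0.37, SE 0.0748). In RefSeq order they held 2 runs of 5 measured neighbours, from ZNF585B to ZNF570 and from ZNF155 to ZNF284. The length of such runs was not tested. In the second run ZNF155, ZNF230, ZNF222 and ZNF223 were read by probe sets that may also read related genes (suffix _s_at or _x_at). The same holds for ZNF569 in the first run, so that neighbours in a run may not be separate readings. The largest falls, of ZNF568 (-0.60, SE 0.389), ZNF229 (-0.31, SE 0.137), ZNF781 (-0.27, SE 0.137) and ZNF792 (-0.27, SE 0.191), did not pass, and without the doubtful array ZNF568 and ZNF229 stood at 0.15 and -0.0645. Without the 2 arrays of doubtful RNA quality 16 members were higher and 1 lower, against 1493 and 1029 of all 54675 probe sets. ZNF155, ZNF225, ZNF112 and ZNF283 then did not pass (changes of 0.40, 0.44, 0.33 and 0.21), and ZNF225 also did not pass without vector + TNFα replicate 2 (0.42). Conversely ZNF224, a KRAB repressor of aldolase A, passed at 0.33, ZNF571 at 0.41 and ZNF599 at -0.33.

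**Figure D2:**
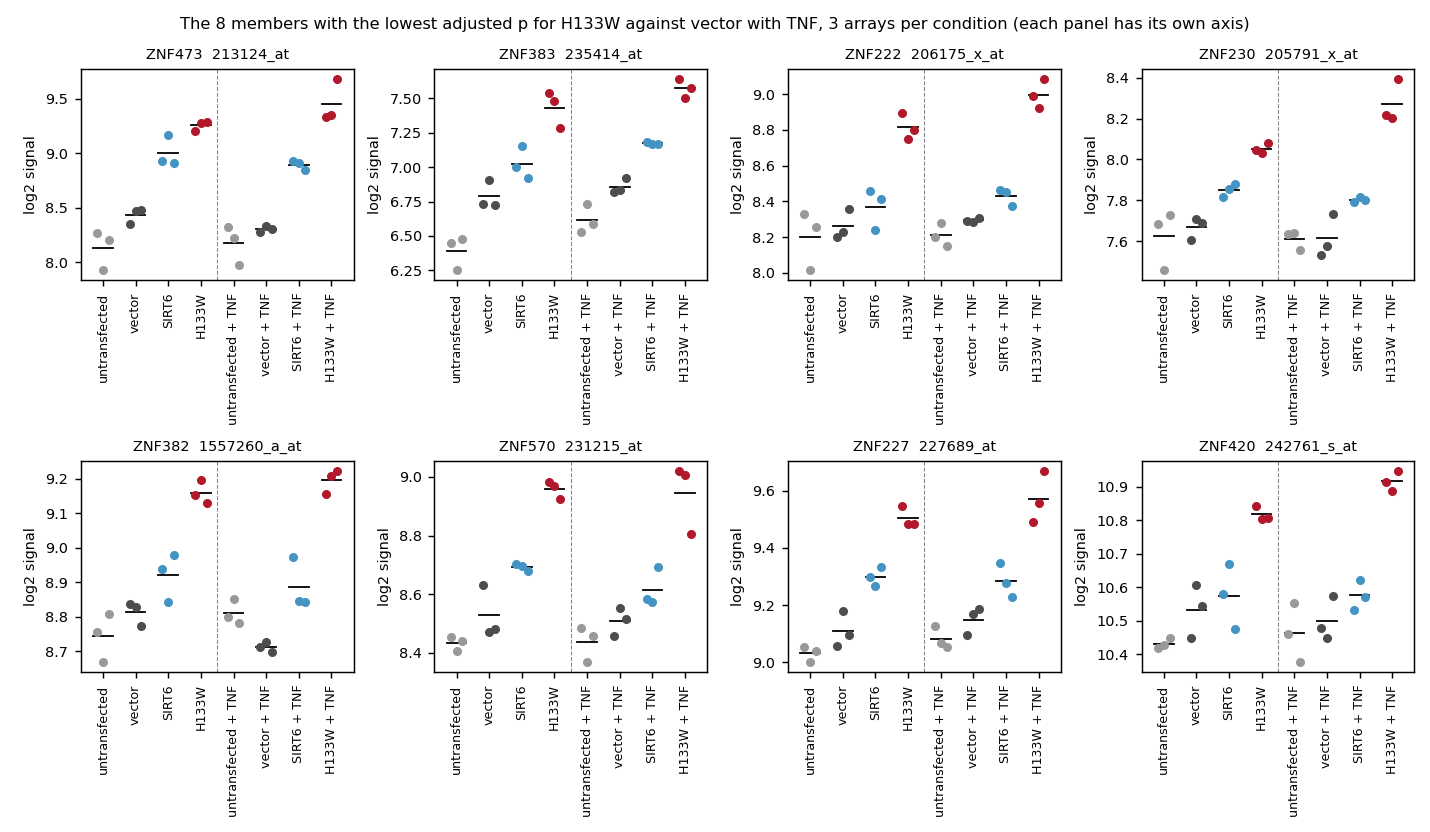
Log2 signal (y axis, a separate scale in each panel) of the 8 members with the lowest adjusted p for H133W + TNFα against vector + TNFα, on each of the 3 arrays of the 8 conditions (x axis). Points are arrays, short lines are means, and the dashed line divides conditions without and with TNFα. In each panel the H133W arrays lie above the vector arrays on both sides of the dashed line, and for ZNF473 they lie at 9.21 to 9.29 without and 9.33 to 9.68 with TNFα. The genes were picked by the comparison with TNFα, so their separation on that side adds no support.

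Of the 12 members that were higher without TNFα 10 were also higher with it (83.3% of the first and 55.6% of the second list), and over all genes 369 of 509 were (72.5% and 41.6%). In both comparisons together 31 of the 50 members lay above 0, and 5275 of all 19775 genes did. No member had an adjusted p under 0.05 in the test of whether the H133W effect differed with TNFα (limma interaction). A plain linear model gave 0 as well. At an unadjusted p under 0.05 in the limma interaction, 7 members had a higher and 1 a lower effect, against 871 and 495 of all 19775 genes.

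By block, in block 4, 6 of 20 genes were higher with H133W at an adjusted p under 0.05 without TNFα and 10 of 20 with it (2.57% and 4.49% of all genes), at median changes of 0.22 and 0.30. In block 2 these were 5 and 7 of 22, at medians of 0.20 and 0.18. None of the 4 genes of block 1 or the 3 of block 3 passed, at medians of -0.088 and -0.077 in block 1 and of 0.21 and 0.0713 in block 3. The 12 measured neighbours inside the blocks that are not zinc finger genes had medians of -0.0131 and -0.0532. One of them, SRRM5, was higher without TNFα (0.43, SE 0.107), and LOC728485 was lower with it (-0.23, SE 0.0612). Several of the block 4 genes that passed were read by sets with the suffix _s_at or _x_at and may not be separate readings. Whether the blocks differ from each other was not tested.

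The same counts were made for other zinc finger genes. Of 452 further genes named ZNF, 42 were higher with H133W at an adjusted p under 0.05 without TNFα and 76 with it, at medians of 0.078 and 0.11. They include the genes of the next 2 lists. Of the 79 measured zinc finger genes of distal 19q13.4, 8 and 20 were higher, at medians of 0.11 and 0.21, and of 26 in the cluster of 19p12, 2 and 3, at medians of 0.0981 and 0.024. None of 17 genes of the KRAB corepressor machinery and none of 11 genes of histone mRNA processing other than ZNF473 passed in any of the 11 comparisons. Their medians in H133W cells were -0.0492 and -0.0607 without and -0.0159 and -0.00573 with TNFα. Members with the ZNF143 and THAP11 element in a window had median changes of 0.21 and 0.28 without and with TNFα (21 genes, 4 and 9 of them higher at an adjusted p under 0.05), those with a window but no match 0.11 and 0.12 (21 genes, 6 and 6), and the 8 without a window 0.24 and 0.33 (2 and 3). These are descriptions, and the difference was not tested.

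**Figure D3:**
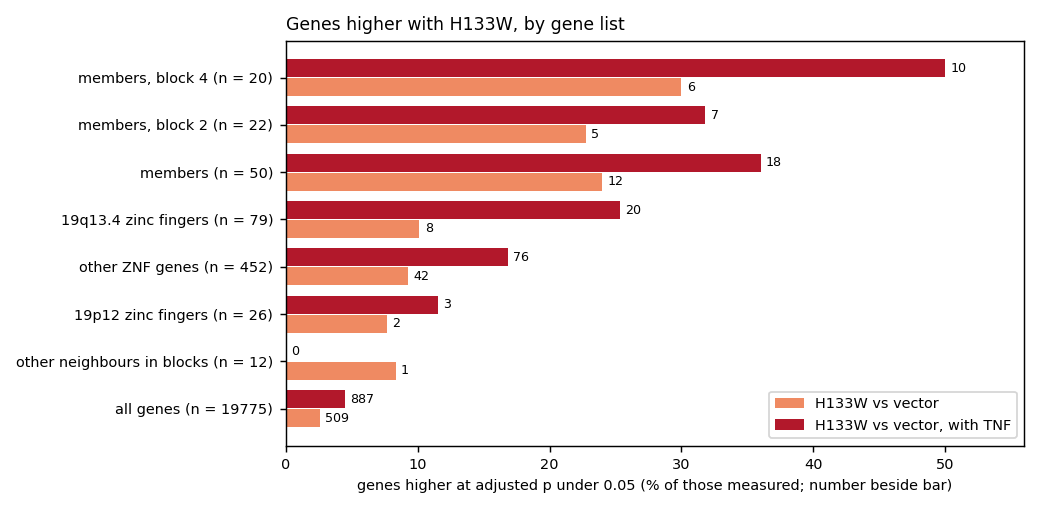
Share of measured genes that were higher with H133W than with vector at an adjusted p under 0.05 (x axis, percent, from 0), for gene lists named on the y axis with their size, without TNFα (light bars) and with TNFα (dark bars). Numbers beside the bars are gene counts, and the members stand at 12 and 18 of 50 against 509 and 887 of 19775 genes.

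The probe sets bear on how these values can be read. ZNF473 has a second probe set, which gave 8.35, 8.49 and 8.45 in vector cells and 8.56, 8.54 and 8.41 in H133W cells. It changed by 0.0734 (SE 0.0957; limma adjusted p = 0.793) without TNFα and by 0.18 (SE 0.0957; limma adjusted p = 0.303) with it, or by 0.0304 without the doubtful array, so that the rise of ZNF473 was seen by only 1 of its 2 probe sets. In block 4 the sets used for ZNF222, ZNF230 and ZNF226 carry the suffix _x_at and those for ZNF155, ZNF223, ZNF112 and ZNF180 the suffix _s_at, which mark sets that may read several transcripts or related genes, and the signals of such close copies cannot be kept apart here. For ZNF230 a set without such a suffix changed by -0.23 (SE 0.133; adjusted p = 0.453) without TNFα and 0.24 (SE 0.133; adjusted p = 0.321) with it. Another such set of ZNF230, read below 5, changed by 0.15 (SE 0.184) and -0.41 (SE 0.184) and did not pass. Its H133W + TNFα values were 4.65, 4.14 and 3.60, the lowest on the doubtful array. For ZNF180 a set without a suffix changed by 0.28 (SE 0.115; adjusted p = 0.174) with TNFα. Its H133W + TNFα values were 7.78, 7.89 and 8.38, the highest again on the doubtful array, against 7.73, 7.72 and 7.78 in vector + TNFα cells. Among the 36 members represented by a set without a suffix 6 and 9 were higher with H133W at an adjusted p under 0.05 without and with TNFα, and among the other 14, 6 and 9. ZNF227 and ZNF570, each read by a set without a suffix, passed in both.

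**Figure D4:**
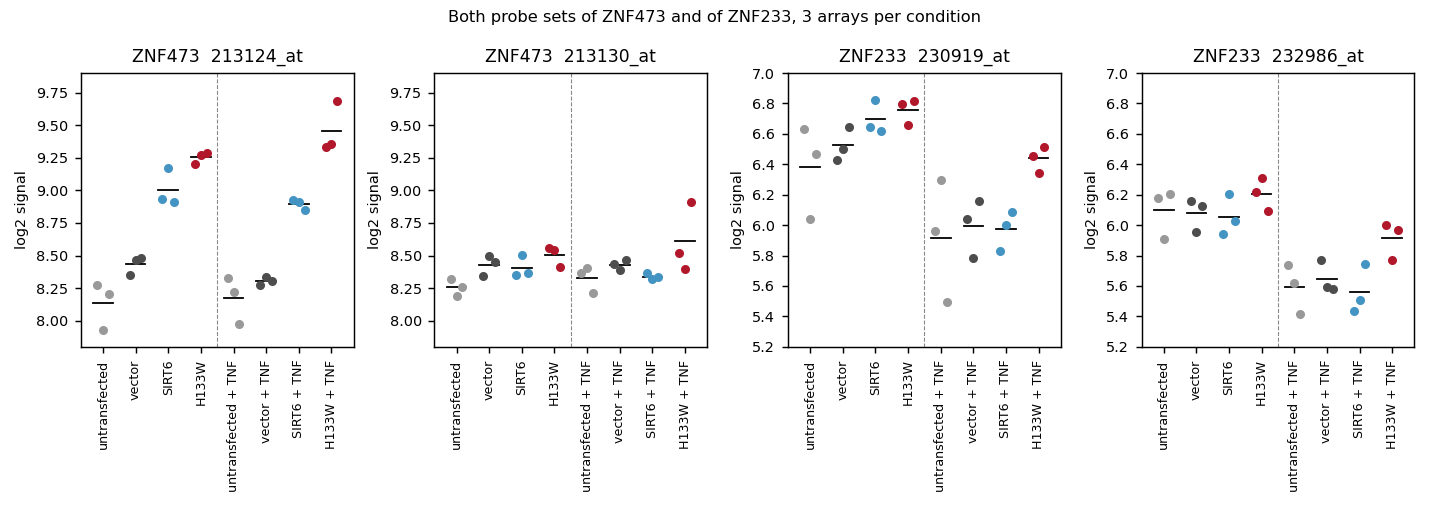
Log2 signal (y axis) of both probe sets of ZNF473 (left pair of panels) and of ZNF233 (right pair) on each array of the 8 conditions (x axis). Points are arrays and short lines are means. The first probe set of ZNF473 is at 9.26 in H133W cells and the second at 8.50, with 8.43 in vector cells for both, whereas both probe sets of ZNF233 lie lower in each TNFα condition than in its unstimulated counterpart by their means.

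Wild type SIRT6 was set against the same vector arrays. Only ZNF473 passed. Its signals were 8.93, 9.17 and 8.91 in SIRT6 cells, above every vector array, with a change of 0.57 (SE 0.105; limma adjusted p = 0.0424) and a fold change of 1.48. It did not pass when any one of the 6 arrays was left out (changes of 0.49 to 0.62). No member was upregulated with the fold threshold, against 0.0506% of all genes, but without the 2 arrays of doubtful RNA quality a member was. With TNFα the signals were 8.93, 8.91 and 8.85, and the rise of 0.59 (SE 0.105; limma adjusted p = 0.0248) lay just above the threshold at 1.505-fold. It was the only upregulated member, against 0.0961% of all genes, and it lost that call without any one of the 6 arrays (changes of 0.57 to 0.61). The second probe set of ZNF473 changed by -0.0232 and -0.0898. Medians of the 50 members were 0.0745 without and 0.0747 with TNFα, with 35 and 33 above 0, and over all genes they were -0.00782 and 0.00293. The next largest changes without TNFα, of ZNF568 (0.48, SE 0.389), ZNF566 (0.41, SE 0.238) and ZNF565 (0.27, SE 0.151), and with TNFα, of ZNF225 (0.32, SE 0.129), ZNF383 (0.32, SE 0.084) and ZNF565 (0.29, SE 0.151), did not pass. Without vector replicate 2 ZNF568 and ZNF566 stood at 0.17 and 0.15, below ZNF565. Nor did the largest falls, of ZNF781 (-0.19, SE 0.137), ZNF780A (-0.18, SE 0.108), ZNF599 (-0.18, SE 0.0861) and ZNF793 (-0.17, SE 0.097) without TNFα and of ZNF540 (-0.34, SE 0.149), ZNF781 (-0.24, SE 0.137), ZNF599 (-0.23, SE 0.0861) and ZNF792 (-0.19, SE 0.191) with it.

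Because SIRT6 and H133W were both set against the vector arrays, the 2 proteins were also compared directly. In unstimulated cells ZNF222 was higher with H133W by 0.44 (SE 0.08; limma adjusted p = 0.0123) and ZNF383 by 0.41 (SE 0.084; limma adjusted p = 0.0323), 2 of 50 members against 0.531% of all genes, and none passed the fold threshold, against 0.137%. ZNF222 did not pass without SIRT6 replicate 2 or H133W replicate 1 or 3 (0.38, 0.40 and 0.45), nor ZNF383 without SIRT6 replicate 1 or 3 or H133W replicate 1 or 2 (0.40, 0.36, 0.36 and 0.39). The difference in ZNF473 was 0.25 (SE 0.105) and did not pass, and its second probe set gave 0.0966 (SE 0.0957). With TNFα 8 members (16%) were higher with H133W, against 1.22% of all genes, 0 on the 6 arrays of the comparison alone (4 of all probe sets in place of 461), and none with the fold threshold, against 0.344%. The largest of these differences were in ZNF222 (0.57, SE 0.08), ZNF473 (0.56, SE 0.105; 0.27, SE 0.0957, in its second probe set, which did not pass) and ZNF230 (0.47, SE 0.0727). ZNF383 (0.40, SE 0.084), ZNF420 (0.34, SE 0.063), ZNF570 (0.33, SE 0.0648), ZNF382 (0.31, SE 0.0568) and ZNF227 (0.29, SE 0.0579) were the others. The second probe set of ZNF473 was read at 8.36, 8.32 and 8.33 in SIRT6 + TNFα cells. In H133W + TNFα cells it was read at 8.52, 8.40 and 8.91, the highest on the array of doubtful RNA quality. For ZNF382 the SIRT6 + TNFα arrays gave 8.97, 8.85 and 8.84 and the H133W + TNFα arrays 9.15, 9.21 and 9.22. For ZNF420 they gave 10.53, 10.62 and 10.57 against 10.91, 10.89 and 10.95, also without overlap. Without SIRT6 + TNFα replicate 1, 2 or 3 the count was 5, 4 and 4, and without H133W + TNFα replicate 1 or 2 the fold threshold was passed by 2 and 3 members. Without the 2 arrays of doubtful RNA quality the difference in ZNF473 was 0.45 and did not pass (limma adjusted p = 0.051). Nor did ZNF473 pass without SIRT6 + TNFα replicate 3 (0.53). ZNF383 did not pass without H133W + TNFα replicate 3 (0.40, limma adjusted p = 0.0545) or without SIRT6 + TNFα replicate 1, 2 or 3 (0.40 each). ZNF420 did not pass without SIRT6 + TNFα replicate 1 (0.32), nor ZNF570 without SIRT6 + TNFα replicate 1 or 2 (0.31 each). No member was lower with H133W than with SIRT6 at an adjusted p under 0.05 in either comparison.

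With TNFα alone few members passed the test. In vector cells no member was called, against 1.25% of all genes. At an unadjusted p under 0.05, 3 were higher and 3 lower, against 796 and 1856 of all 19775 genes. In untransfected cells none was called, against 1.18%. At an unadjusted p under 0.05, 1 was higher and 2 lower, against 798 and 1201 of all genes. In SIRT6 cells none was higher and 5 lower at an unadjusted p under 0.05, against 780 and 1699 of all genes. With the fold threshold 1 was downregulated, against 1.28% of all genes called in either direction. This was ZNF233 of block 4, which went from 6.65, 6.82 and 6.62 to 5.83, 6.00 and 6.09, a change of -0.72 (SE 0.16; limma adjusted p = 0.0169) and without overlap. It did not pass without SIRT6 replicate 1 or 2 or without SIRT6 + TNFα replicate 1 or 2 (changes of -0.75, -0.66, -0.65 and -0.73). Its changes in vector, untransfected and H133W cells were -0.53 (SE 0.16), -0.46 (SE 0.16) and -0.32 (SE 0.16) and did not pass. The second probe set of ZNF233 was lower with TNFα in vector cells by -0.43 (SE 0.109; limma adjusted p = 0.0435), in untransfected cells by -0.51 (SE 0.109; limma adjusted p = 0.015) and in SIRT6 cells by -0.50 (SE 0.109; limma adjusted p = 0.0157), and in H133W cells it changed by -0.29 (SE 0.109; limma adjusted p = 0.157). Only in SIRT6 cells did both probe sets pass, and no interaction of TNFα with transfection passed for ZNF233.

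In H133W cells TNFα called no member with the fold threshold, against 1.42% of all genes. At an unadjusted p under 0.05, 10 were higher and 4 lower, against 1699 and 1921 of all 19775 genes. At an adjusted p under 0.05 alone ZNF585B and ZNF567 were higher, against 1.81%. ZNF567 went from 8.70, 8.68 and 8.54 to 9.06, 9.15 and 8.95, a change of 0.41 (SE 0.0891; limma adjusted p = 0.0119). ZNF585B went from 7.87, 7.97 and 7.93 to 8.23, 8.19 and 8.61, a change of 0.42 (SE 0.0897; limma adjusted p = 0.0105), in which the highest value is again that of H133W + TNFα replicate 3. ZNF567 did not pass without H133W replicate 3 (0.36), nor ZNF585B without H133W replicate 1 (0.40). The members' medians in the 4 TNFα comparisons were -0.00295 (vector), 0.0392 (untransfected), -0.0132 (SIRT6) and 0.0386 (H133W).

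The empty plasmid alone was set against untransfected cells. ZNF383 was the one member at an adjusted p under 0.05, with 6.45, 6.25 and 6.48 in untransfected and 6.73, 6.91 and 6.73 in vector cells, a rise of 0.40 (SE 0.084; limma adjusted p = 0.04997), against 0.187% of all genes. It stood at the threshold and did not pass in 13 of 16 alternatives, among them leaving out vector replicate 2 (0.34). None passed the fold threshold, against 0.0607%. In this comparison 41 of 50 members lay above 0 with a median of 0.0851, and over all genes 50.6% did with a median of 0.0015. The members' median was 0.0295 without untransfected replicate 2 and 0.126 without untransfected replicate 1.

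**Figure D5:**
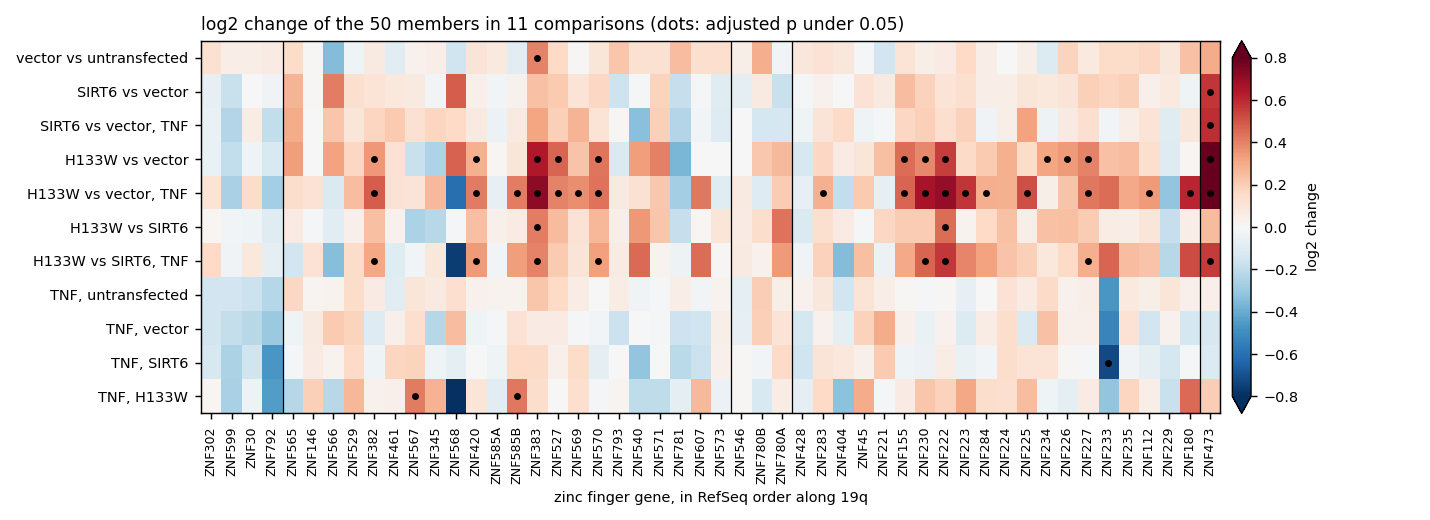
Log2 change (colour, red higher and blue lower, scale cut at 0.8 in either direction) of the 50 members (x axis, RefSeq order along 19q, vertical lines divide the blocks) in 11 comparisons (y axis). Dots mark an adjusted p under 0.05. The dots lie mainly in the rows of H133W, with 12 and 18 against vector and 2 and 8 against SIRT6, and the rows of TNFα hold 3 in all.

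The members differed in how steadily they were read. The mean SD within conditions had a median of 0.0972 over the 50 genes and ran from 0.0465 for ZNF382 to 0.368 for ZNF568, whose mouse counterpart represses Igf2 in the placenta. ZNF568 was read at 5.90, 5.96 and 3.69 in H133W + TNFα cells and at 5.90, 4.90 and 5.82 in vector cells, the low value lying each time on the array of doubtful RNA quality. Its change with H133W under TNFα was -0.60 with that array and 0.15 without it. ZNF780B and ZNF792 had the next largest SDs, 0.248 and 0.243. ZNF461 and ZNF781 had means below 5, at 2.60 and 3.56, and the remaining 48 genes had means up to 11.28 (ZNF146, a gene of fingers without a KRAB domain).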

How the data were processed

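HEK293 cells of 8 conditions, 3 arrays each, were measured on Affymetrix HG-U133 Plus 2.0 arrays. The authors normalized the arrays by RMA in ArrayStudio, and the deposited values are log2 signals of 54675 probe sets. They were used as deposited (0 columns had no sample). Gene names came from the platform's table, updated through Entrez IDs to RefSeq symbols. With limma 3.58.1 in R 4.3.3, all 24 arrays entered a linear model of 8 condition means (16 residual and 3.47 prior degrees of freedom). The 11 comparisons and 3 interactions were contrasts, with Benjamini-Hochberg adjustment over 54675 probe sets. Percentages of all genes are over 19775 genes, 1 probe set each. The fit was tested on simulated data. The members and lists were chosen with earlier results of these data known. Named members are those called in any comparison, up to 6 more per direction with an adjusted p under 0.05, the 4 largest changes per direction in comparisons of SIRT6 or H133W with vector, and the 3 with the largest SD. Any other member named in the text was named after its values were seen. Promoter windows are RefSeq's (GRCh38.p14). Alternatives were a plain linear model, the 6 arrays of a comparison alone, a variance trend, no dim probe sets (mean under 5), centred or quantile normalized arrays, no fold threshold, other probe sets, a replicate block, array weights, and leaving out arrays. The number of arrays limits the precision.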

Additional observations from a re-analysis of the deposited data

Results flagged for a closer look

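A total of 6 changes passed in probe sets that do not represent a member, where the representing probe set did not pass or is lacking. For ZNF224 one further set was higher with H133W under TNFα by 0.39, and for ZNF585A one by 0.43. The other further sets did not pass. They changed by 0.0385, 0.0209, -0.27 and 0.0945 for ZNF224 and by 0.0309 and 0.0293 for ZNF585A. The set at -0.27 had its lowest H133W + TNFα value on replicate 3, the array of doubtful RNA quality. For ZNF568 one further set rose with TNFα in H133W cells by 0.38, while the representing set changed by -0.82 without passing, or by -0.0776 without H133W + TNFα replicate 3, the array of doubtful RNA quality. The set that rose was read below 5. The remaining sets of ZNF568 changed by -0.32, -0.16 and -0.0895 and did not pass, the first 2 with their lowest H133W + TNFα value on that array. For ZNF233 the second set fell with TNFα by 0.43 in vector cells (a change of -0.43) and by 0.51 in untransfected cells (-0.51). The probe set shared by ZNF285 and ZNF285CP was higher with H133W under TNFα by 0.68 (SE 0.114; limma adjusted p = 0.00119), at 8.65, 8.52 and 8.57 in vector + TNFα cells against 9.04, 9.12 and 9.62 in H133W + TNFα cells. The highest value is that of the doubtful array, and without the 2 doubtful arrays the change was 0.50 (SE 0.0736; limma adjusted p = 0.000549), below the fold threshold, and 0.48 without TNFα (adjusted p = 0.000809, against 0.38 and 0.0787 with them). Without them the flagged sets of ZNF224, ZNF585A and ZNF568 stood at 0.37, 0.46 and 0.42 and passed. It cannot be said whether it read ZNF285 or ZNF285CP. With 3 arrays per condition no array was tested as an outlier.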

How the results depend on the processing

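Calls with the fold threshold that changed were few. Against vector under TNFα, H133W gave 3 upregulated members on the 6 arrays of the comparison alone and 2 with plain _at probe sets, instead of 5. SIRT6 under TNFα gave 0 with a replicate block or with array weights, instead of 1, and SIRT6 without TNFα gave 1 without the 2 arrays of doubtful RNA quality, instead of 0. With no fold threshold there were 1 (SIRT6), 12 (H133W), 18 (H133W with TNFα), 2 and 8 (H133W against SIRT6 without and with TNFα), 1 (vector against untransfected) and 2 (TNFα in H133W cells). By the adjusted p alone the comparison's own 6 arrays gave 4, 3 and 0 members for H133W, H133W with TNFα and H133W against SIRT6 with TNFα, instead of 12, 18 and 8, while all probe sets higher fell from 1094 to 492, 1622 to 81 and 461 to 4, and plain _at probe sets gave 7, 9 and 4. The replicate numbers did not pair the arrays (correlations of deviations from -0.38 to 0.28), and a replicate block gave 0 calls for SIRT6 under TNFα as above and moved no other count of calls by over 1.5 times. Leaving out 1 array at a time gave 0 to 1 calls for TNFα in untransfected cells (ZNF233 without replicate 2 of untransfected + TNFα), 0 for SIRT6 under TNFα, 0 to 3 for H133W against SIRT6 with TNFα (4 to 11 by adjusted p alone), 0 to 1 for TNFα in SIRT6 cells, 0 to 1 for TNFα in H133W cells (1 without H133W + TNFα replicate 1 or 2), 2 to 3 for H133W and 4 to 6 for H133W with TNFα. Medians of the members moved by less than 0.0873, the spread between arrays, under each alternative, which for vector against untransfected cells (0.0851) spans 0.0295 to 0.126. This limit is larger than that median itself. It is also larger than those for SIRT6 (0.0745 and 0.0747), for H133W against SIRT6 without TNFα (0.067) and for every TNFα comparison. For all of these it shows no stability. With plain _at probe sets ZNF230 turned to -0.23 and ZNF345 to 0.22 with H133W, and ZNF568 with H133W under TNFα turned to 0.0788 with array weights and to 0.15 without the 2 arrays of doubtful RNA quality or without H133W + TNFα replicate 3 (range over arrays left out -0.99 to 0.15). Rescaling moved the median of all probe sets by at most 0.0509. The cause was not tested in any of these cases.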
